A study of Homo sapiens with 6 samples.

Results

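Chemokine expression by HK-2 cells, which derive from human proximal tubules and were immortalised, was measured for 10 genes chosen by name as the chemokines of tubular cells: CXCL1, CXCL2, CXCL3, CXCL5, CXCL6, CXCL8, CCL2, CCL20, CX3CL1 and CXCL12. These were 10 of 41497 named entries in each gene table, and each had 1 entry, on a primary chromosome. RNA-seq of poly(A) mRNA was done on 3 control libraries and 3 libraries of cells given TGF-β1, all from wild-type (WT) cells at 24 hours. The culture medium held fetal bovine serum per the labels, whereas the methods of the study describe TGF-β treatment as serum-free, and the serum of the control cells was not stated. Those methods give a dose for TGF-β treatment in general, and the labels of these libraries give none. The study used these libraries to look for TGF-β-responsive regulators in tubular cells. Whether the 3 libraries of a group came from separate cultures is not stated, so p values measure the spread between these libraries.

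Chemokines are small secreted proteins that guide leukocytes by binding G protein-coupled receptors, and they are named by the spacing of their first cysteines (CXC, CC, CX3C). CXC chemokines with an ELR motif (glutamate, leucine, arginine) before these cysteines attract neutrophils through CXCR2, and some also act on CXCR1. Here the ELR chemokines are CXCL1, CXCL2, CXCL3, CXCL5, CXCL6 and CXCL8. CCL2 attracts monocytes through CCR2, CCL20 attracts CCR6-bearing lymphocytes and dendritic cells, CX3CL1 (fractalkine) is membrane-anchored and binds CX3CR1, and CXCL12 binds CXCR4. Injured tubules are a known source of several of them in the kidney, and many chemokine genes are targets of the transcription factor NF-κB.

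The 6 ELR chemokine genes lie together on chromosome 4q13, and their promoters are shown because these genes did not all change in the same direction. RefSeq promoter windows (GRCh38.p14, 250 bases before to 50 after the transcription start) were found for 8 of the 10 members and not for CCL2 and CX3CL1. The 130 bases before each start are given 5′ to 3′ on the gene's own strand, with the match to the κB motif, the binding sequence of NF-κB, in capitals. They lie at chr4:73869263-73869392 (plus strand) for CXCL1, chr4:74099196-74099325 (minus) for CXCL2, chr4:74038690-74038819 (minus) for CXCL3, chr4:73998678-73998807 (minus) for CXCL5, chr4:73836548-73836677 (plus) for CXCL6 and chr4:73740439-73740568 (plus) for CXCL8.
CXCL1: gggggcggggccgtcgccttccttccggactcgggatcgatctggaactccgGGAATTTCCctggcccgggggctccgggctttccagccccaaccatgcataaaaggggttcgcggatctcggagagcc
CXCL2: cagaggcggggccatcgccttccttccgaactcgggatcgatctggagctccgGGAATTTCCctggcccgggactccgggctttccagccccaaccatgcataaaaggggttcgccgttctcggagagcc
CXCL3: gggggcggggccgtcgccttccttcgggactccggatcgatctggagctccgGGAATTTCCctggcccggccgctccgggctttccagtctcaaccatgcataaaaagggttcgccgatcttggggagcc
CXCL5: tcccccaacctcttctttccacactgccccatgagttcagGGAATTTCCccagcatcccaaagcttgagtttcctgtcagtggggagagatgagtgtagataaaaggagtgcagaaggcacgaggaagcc
CXCL6: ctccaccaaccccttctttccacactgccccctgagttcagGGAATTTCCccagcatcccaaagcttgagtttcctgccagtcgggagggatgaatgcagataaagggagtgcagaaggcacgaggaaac
CXCL8: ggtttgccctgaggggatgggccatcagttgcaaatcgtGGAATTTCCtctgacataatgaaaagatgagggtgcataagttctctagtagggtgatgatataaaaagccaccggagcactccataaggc

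A κB motif searched on both strands as GGANNTTCC was present in 6 of the 8 windows, compared with 4.56% of 35116 RefSeq windows. All 6 were ELR chemokines and carried the same 9 letters, GGAATTTCC, beginning 77 to 91 bases before the start. CCL20 and CXCL12 held no match to these letters. With 1 more free position (GGNNNTTCC) CCL20 also matched, giving 7 of 8 windows against 20.1% of all. An AP-1 motif (TGANTCA) was found in the CXCL8 window, where it lies in the part not printed (7.71% of all windows). A C/EBP motif (TTGCNNAA) was found in the unprinted part of the CXCL2 window (10.5% of all windows). A looser form was searched for the κB motif only, and the printed CXCL8 stretch holds ttgcaaat, which differs from TTGCNNAA in the last letter. A TATA box (TATAAA) was found in the CXCL8 and CCL20 windows (11.5% of all windows). None of these motifs overlapped another in a member's window except the 2 forms of the κB motif. Over the printed stretches, CXCL1 was 92.4% identical to CXCL2 and 91.5% to CXCL3, CXCL2 was 87.8% identical to CXCL3, and CXCL5 was 90.8% identical to CXCL6. CXCL8 was 43.8% to 47.8% identical to the other ELR chemokines. Letters that match a motif describe the sequence only.

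Library depth was 21.9 to 26.8 megacounts (M) on named genes. The first principal component separated the groups, and TGF-β1 replicate 1 stood apart from replicates 2 and 3 on the second, at 26.9 against -13.2 and -15.1. In these bulk libraries, fewer cells making an mRNA and less of that mRNA per cell cannot be told apart.

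After TGF-β1, most of the tubular chemokines fell while the most abundant of them, CXCL8, and the monocyte chemokine CCL2 rose. CXCL2, CXCL3, CXCL5, CCL20 and CX3CL1 fell 2.33-fold to 4.42-fold, CXCL6 fell 1.83-fold from a low level, CXCL8 rose 1.30-fold and CCL2 rose 2.43-fold. Of the 10 genes, 8 passed the filter on low counts and were tested with edgeR among 14860 genes. At a Benjamini-Hochberg adjusted p under 0.05, 2 were higher, where 22.2% of all genes tested were higher, and 6 were lower, where 22.1% of all genes were lower. Both an adjusted p under 0.05 and a log2 fold change of -1 or below were reached by 5 of the 8, compared with 5.38% of all genes tested. All TGF-β1 libraries lay above all control libraries for 2 of the 8 (27.9% of all genes tested) and below them for 6 (27.7% of all genes tested). CXCL1 and CXCL12 had too few reads to be tested and are described by their reads. Without TGF-β1 replicate 1, the library that stood apart, the 8 tested genes kept their calls, with log2 fold changes of 0.35 for CXCL8, 1.38 for CCL2, -1.64 for CXCL2, -1.22 for CXCL3, -2.16 for CXCL5, -0.87 for CXCL6, -1.36 for CCL20 and -1.95 for CX3CL1.

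**Figure D1:**
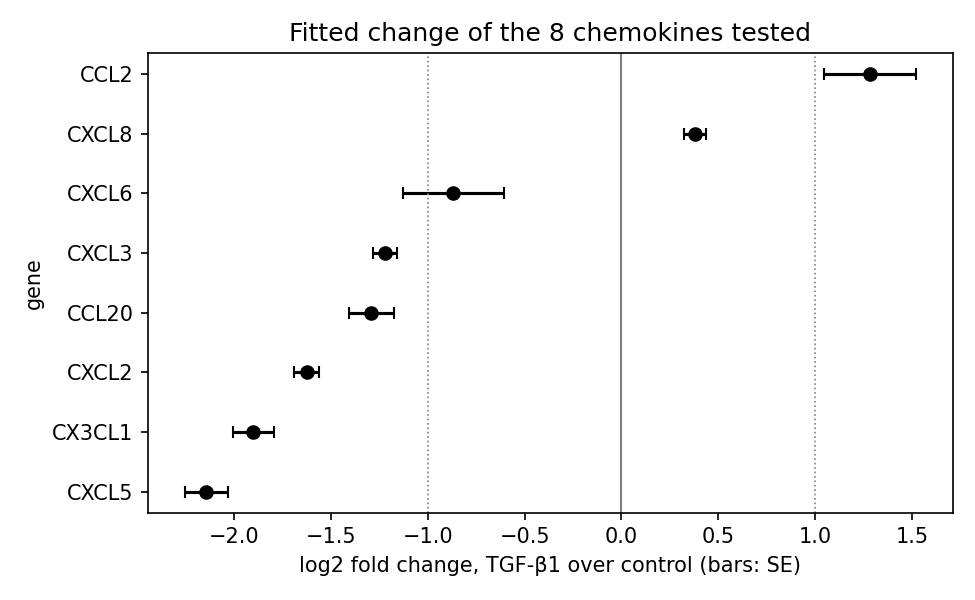
The log2 fold change of each of the 8 tested chemokines (TGF-β1 over control, horizontal axis) is plotted with its standard error, and dotted lines mark -1 and 1. CXCL8 (0.38) and CCL2 (1.28) lie right of 0, while the other genes lie left of it, from -0.87 for CXCL6 to -2.14 for CXCL5.

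CXCL8 (interleukin-8; chromosome 4, 73740569 to 73743716, plus strand), the main neutrophil attractant of human cells, was by far the most abundant. It had 61834, 67011 and 63039 reads in the control libraries and 94807, 81227 and 75790 after TGF-β1. The lowest TGF-β1 library lay above the highest control library. Scaled to depth, this was 2722 ± 30.7 CPM (counts per megacount of depth) in control and 3540 ± 157 CPM after TGF-β1 (SD, n = 3), a log2 fold change of 0.38 ± 0.06 (SE, with an edgeR adjusted p of 3.1e-04). Scaling by total counts alone shifts the all-gene median by -0.11 (log2), and CXCL8 was then at 0.27 and still called higher. CXCL8 took 0.281% to 0.284% of the counts of a control library and 0.322% to 0.354% after TGF-β1. By TPM (transcripts per megatranscript, a depth-scaled level that allows for gene length) it ranked 13 or 14 among all named entries in the control libraries and 12, 9 and 7 in the TGF-β1 libraries.

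CXCL2 (chromosome 4, 74097040 to 74099195, minus strand), a neutrophil chemokine of the GRO group, had 2157, 2453 and 2432 reads in control and 843, 737 and 715 after TGF-β1. The TGF-β1 libraries sat close together and far below the control libraries. Its level was 99.8 ± 4.05 CPM in control and 32.3 ± 1.83 CPM after TGF-β1 (SD, n = 3), a fall of 3.09-fold (log2 fold change -1.63 ± 0.06 SE, edgeR adjusted p = 9.2e-09). It was the member with the smallest adjusted p.

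CXCL3 (chromosome 4, 74036589 to 74038689, minus strand), a second GRO chemokine, had 881, 933 and 900 reads in control and 424, 387 and 362 after TGF-β1. The groups did not overlap, and the control values varied by 1.22% (coefficient of variation). The control values were 38.5 ± 0.469 CPM, and the TGF-β1 values were 16.5 ± 0.672 CPM (SD, n = 3). The log2 fold change was -1.22 ± 0.06 (SE, with an edgeR adjusted p of 6.7e-08). The TPM ratio of CXCL2 to CXCL3 was 2.36, 2.53 and 2.61 in the control libraries and 1.92, 1.84 and 1.90 after TGF-β1, without overlap (2-sided exact permutation p = 0.1, the smallest that 3 against 3 libraries can give).

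CXCL1 (chromosome 4, 73869393 to 73871308, plus strand), the founding GRO chemokine and, over the printed promoter stretch, the most similar to CXCL2, was close to absent. There were 9, 17 and 16 reads in control and 5, 8 and 3 after TGF-β1. All TGF-β1 libraries lay below all control libraries, by 1 read at the nearest. The depth-adjusted read ratio was 0.377 (95% exact interval 0.198 to 0.686), and the exact permutation p was 0.1. When all genes with a count were tested, edgeR gave a log2 fold change of -1.37 and an adjusted p of 0.0115. In the fits that left out 1 library, CXCL1 passed the filter in 4, with adjusted p from 0.0169 to 0.0619, the highest without TGF-β1 replicate 3. CXCL2 exceeded CXCL1 in TPM by 155 to 257 times in control and by 98.9 to 256 times after TGF-β1, so these ratios overlapped between groups. Of all 75-base stretches of the transcript, 0.293% of those of CXCL1, 2.27% of CXCL2 and 2.30% of CXCL3 also occur in another gene. Reads from these stretches could be assigned to either gene. CXCL2 had 7042 reads in the control libraries together and 2295 after TGF-β1, against 42 and 16 for CXCL1. Whether reads of CXCL2 entered the CXCL1 count was not tested.

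CXCL5 (chromosome 4, 73995642 to 73998677, minus strand), an ELR chemokine made by epithelial cells, had 267, 337 and 299 reads in control and 76, 74 and 56 after TGF-β1. The highest TGF-β1 library, with 76 reads, was far below the lowest control library, with 267. The level was 12.8 ± 0.973 CPM in control and 2.88 ± 0.196 CPM after TGF-β1 (SD, n = 3). Its fall was the largest of the members tested, with a log2 fold change of -2.14 ± 0.11 (SE, with an edgeR adjusted p of 8.4e-08). The TPM ratio of CXCL2 to CXCL5 was 15.9 to 17.8 in control and 21.8 to 27.9 after TGF-β1, without overlap (2-sided exact permutation p = 0.1, the smallest possible).

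CXCL6 (chromosome 4, 73836678 to 73838760, plus strand), the neighbour in sequence of CXCL5, had 21, 21 and 18 reads in control and 12, 11 and 10 after TGF-β1. The groups did not overlap, but each library held few reads. Its level was 0.852 ± 0.0819 CPM in control and 0.464 ± 0.0117 CPM after TGF-β1 (SD, n = 3), a log2 fold change of -0.87 ± 0.26 (SE, with an edgeR adjusted p of 0.0192). This call was lost with DESeq2 (adjusted p = 0.171) and in 3 edgeR fits that omitted control replicate 1 (0.0656), control replicate 2 (0.0579) or replicate 2 of TGF-β1 (0.0579).

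CCL2 (MCP-1; chromosome 17, 34255285 to 34257203, plus strand), the monocyte attractant, had 24, 31 and 24 reads in control and 60, 89 and 46 after TGF-β1. TGF-β1 replicate 2 was the highest, and the lowest TGF-β1 library was above every control library. The level was 1.12 ± 0.131 CPM in control and 2.73 ± 0.828 CPM after TGF-β1 (SD, n = 3), a log2 fold change of 1.28 ± 0.24 (SE, with an edgeR adjusted p of 0.00128). Without TGF-β1 replicate 2 it was 1.002. CCL2 was the only member apart from CXCL8 that rose.

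CCL20 (chromosome 2, 227813842 to 227817556, plus strand), the ligand of CCR6, had 182, 207 and 196 reads in control and 94, 78 and 69 after TGF-β1. Every TGF-β1 library was well below the control libraries. It fell from 8.29 ± 0.205 to 3.38 ± 0.205 CPM (SD, n = 3), with a log2 fold change of -1.29 ± 0.12 (SE, with an edgeR adjusted p of 6.3e-06). Per length, CCL20 exceeded CCL2 by 6.74, 5.93 and 7.26 times in the control libraries and by 1.39, 0.779 and 1.33 times after TGF-β1 (TPM ratio; 2-sided exact permutation p = 0.1, the smallest possible). In TGF-β1 replicate 2 the order of the pair was turned around.

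CX3CL1 (chromosome 16, 57372490 to 57385044, plus strand), which in its membrane form also serves as an adhesion molecule, had 347, 431 and 347 reads in control and 116, 105 and 83 after TGF-β1. Control replicate 2 was the highest, and the groups were far apart. The level fell from 15.9 ± 1.49 to 4.25 ± 0.258 CPM (SD, n = 3), a log2 fold change of -1.90 ± 0.10 (SE, with an edgeR adjusted p of 1.2e-07).

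CXCL12 (SDF-1; chromosome 10, 44292088 to 44385097, minus strand), a chemokine typical of stromal cells, had 2, 1 and 10 reads in control and 5, 2 and 2 after TGF-β1. The groups overlapped, and control replicate 3 alone held most of the control reads. The depth-adjusted read ratio was 0.686 (95% exact interval 0.259 to 1.73; 2-sided exact permutation p = 0.9), so a difference was not detectable at this depth.

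**Figure D2:**
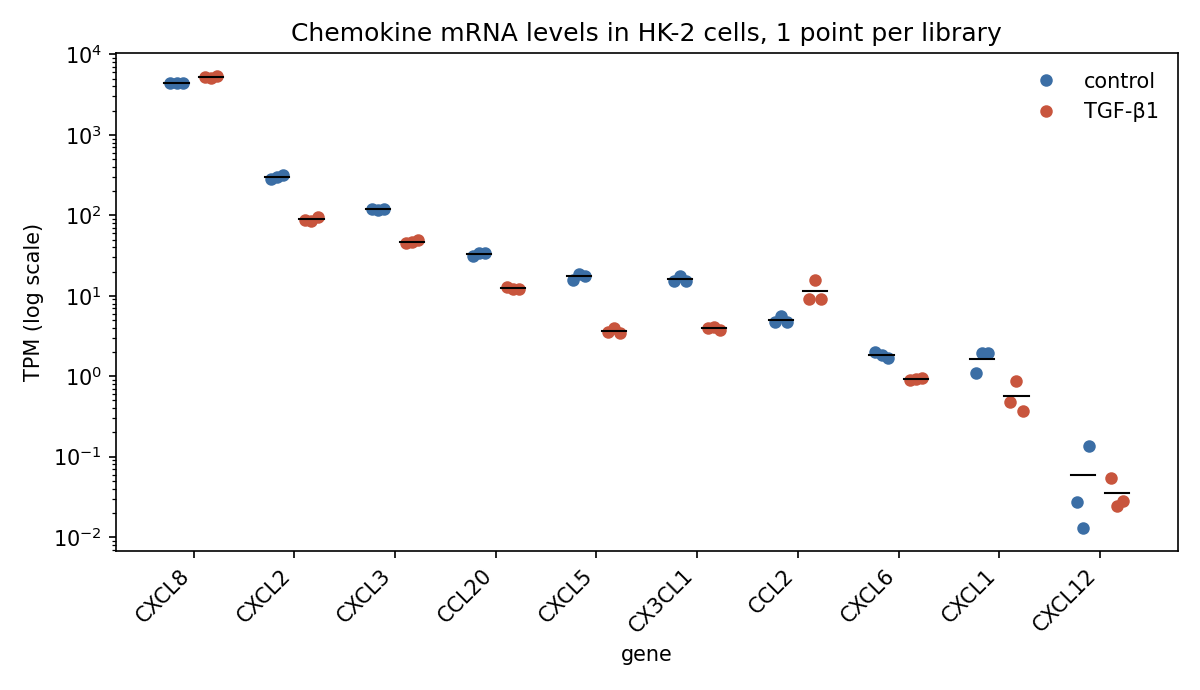
TPM of each of the 10 chemokines on a log scale, with 1 point per library (control and TGF-β1) and a line at the mean of each group. CXCL8 is at 4355 TPM or above in every library, and CXCL12 is at 0.137 TPM or below. CXCL8 and CCL2 are higher after TGF-β1.

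Levels were compared between genes in TPM. In control the order was CXCL8 (4401 ± 40.1), CXCL2 (298 ± 17.5), CXCL3 (119 ± 1.64), CCL20 (33.1 ± 1.28), CXCL5 (17.5 ± 1.47), CX3CL1 (16.1 ± 1.46), CCL2 (5.02 ± 0.573), CXCL6 (1.84 ± 0.144), CXCL1 (1.65 ± 0.485) and CXCL12 (0.0591 ± 0.0679; all SD, n = 3). The libraries of CXCL5 and CX3CL1 overlapped, as did those of CXCL6 and CXCL1, and the other neighbours in the order did not. After TGF-β1 the same genes came first, with CXCL8 at 5271 ± 166, CXCL2 at 88.9 ± 5.14 and CXCL3 at 47.1 ± 2.45 TPM (SD, n = 3). CCL20 (12.4 ± 0.394) and CCL2 (11.3 ± 3.67) then overlapped, and CX3CL1 (3.97 ± 0.209) overlapped CXCL5 (3.63 ± 0.276). CXCL6 (0.927 ± 0.0359), CXCL1 (0.571 ± 0.261) and CXCL12 (0.0356 ± 0.0161) stayed last and did not overlap.

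The summed TPM of the 10 genes was 4825, 4917 and 4940 in the control libraries and 5415, 5284 and 5620 after TGF-β1. Without CXCL8 the sum was 470, 496 and 512 in the control libraries and 162, 170 and 175 after TGF-β1. CXCL8 therefore made up 90.3%, 89.9% and 89.6% of the summed TPM in control and 97.0%, 96.8% and 96.9% after TGF-β1. The TPM ratio of CXCL8 to CXCL2 was 15.5, 14.8 and 14.0 in the control libraries and 60.9, 59.7 and 57.4 with TGF-β1. Ratios within a library do not depend on the scaling between libraries. None of these quantities overlapped between groups, and each had a 2-sided exact permutation p of 0.1, the smallest possible.

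**Figure D3:**
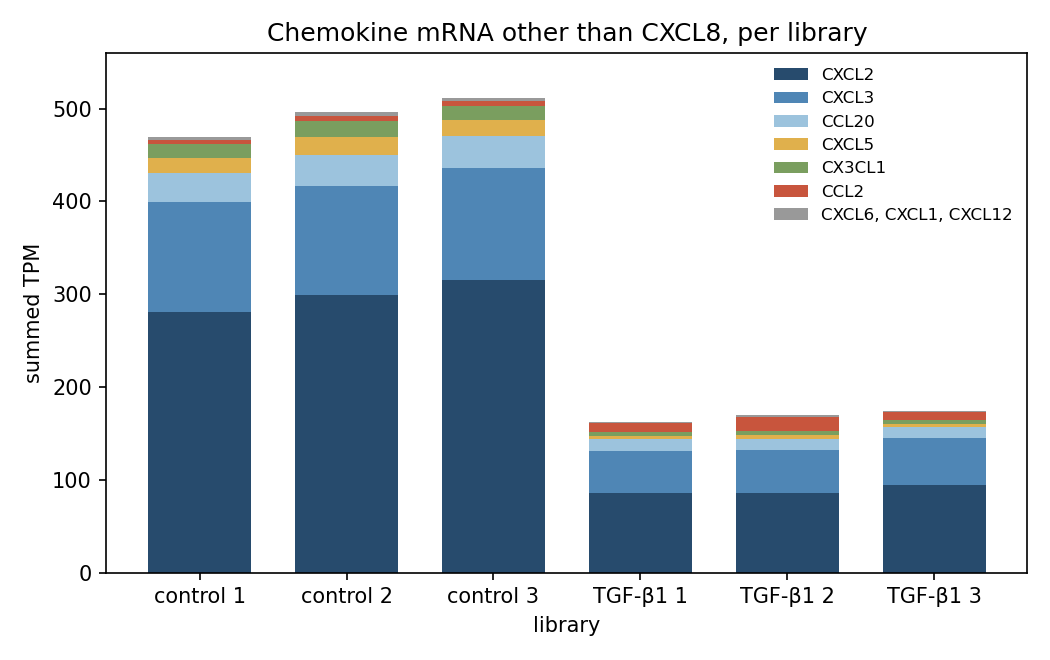
Stacked bars give the summed TPM of the 9 chemokines other than CXCL8 in each of the 6 libraries. The control bars reach 470 to 512 TPM and the TGF-β1 bars 162 to 175 TPM, CXCL2 is the largest part of every bar, and the CCL2 part is larger in the TGF-β1 bars.

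The ELR genes were then placed among their neighbours on 4q13. All 6 lie within 359 kb, in a window of 1223 kb from RASSF6 to BTC (chromosome 4, 73571550 to 74794718) with 20 listed genes. Of the 13 tested, 1 was higher (CXCL8) and 9 were lower, compared with 22.2% and 22.1% of all genes tested. The 9 lower genes include CXCL2, CXCL3, CXCL5 and CXCL6, which are members chosen by name. CXCL8 and its nearest tested ELR neighbour, CXCL6, lie 96.1 kb apart and changed in opposite directions, with log2 fold changes of 0.38 and -0.87, subject to the limits of the CXCL6 call above. Beyond the chemokines lie the genes of epidermal growth factor receptor ligands. AREG (amphiregulin) fell from 15.4 ± 2.17 to 2.80 ± 0.298 CPM (log2 fold change -2.45 ± 0.13 SE), BTC (betacellulin) from 9.12 ± 0.627 to 1.58 ± 0.456 CPM (-2.54 ± 0.19) and EREG (epiregulin) from 191 ± 32.8 to 89.8 ± 2.67 CPM (-1.09 ± 0.11; SD, n = 3). RASSF6, on the other side of CXCL8, fell from 9.07 ± 1.40 to 5.44 ± 0.885 CPM (-0.74 ± 0.15). MTHFD2L, a mitochondrial folate enzyme gene next to CXCL2, was not called, at 22.7 ± 3.16 and 22.9 ± 1.43 CPM (0.01 ± 0.10, edgeR adjusted p = 0.933), and its sign turned with the scaling. The platelet chemokine genes PF4 and PPBP, which lie between CXCL1 and CXCL5, had 0 and 2 reads in all 6 libraries together.

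**Figure D4:**
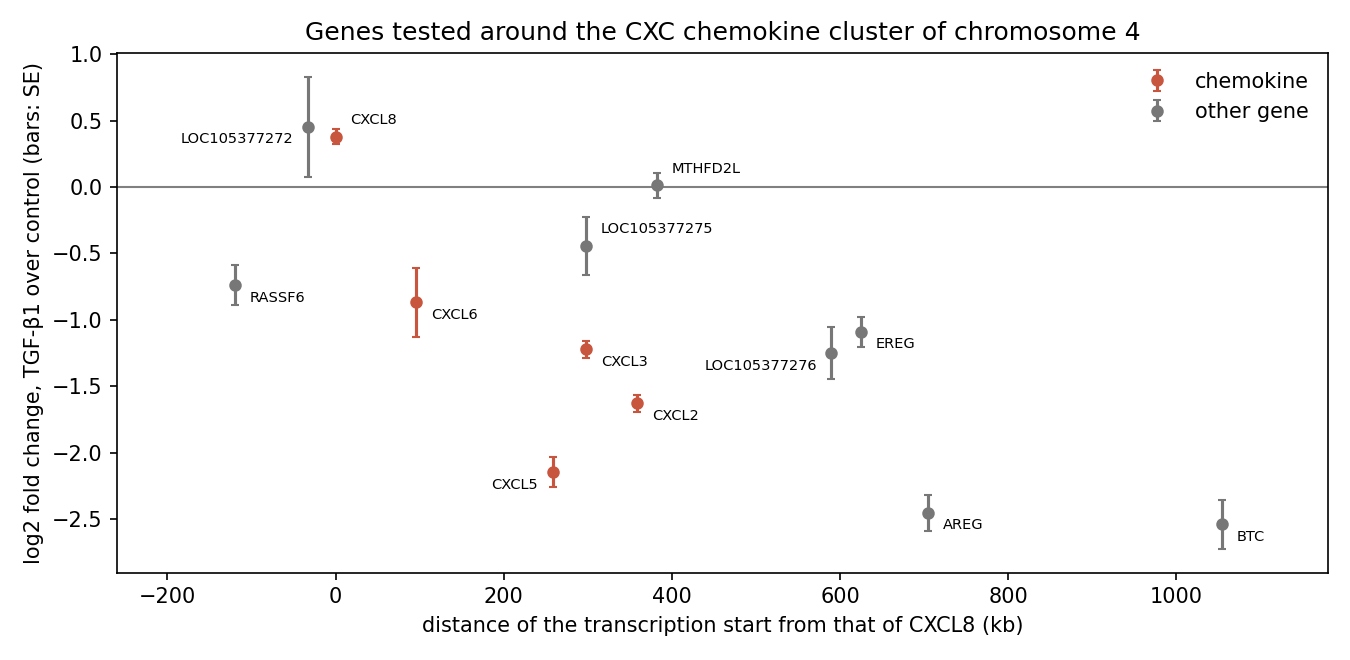
Log2 fold change with its standard error (vertical axis) of the 13 tested genes of the 4q13 window, 3 of them uncharacterised loci (LOC names), against the distance in kb of their transcription start from that of CXCL8, with chemokines in colour. CXCL8, at 0 kb, is at 0.38, and the other 4 tested chemokines lie between -0.87 and -2.14.

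The 10 members held nearly all chemokine mRNA of these cells, 99.2% of the summed TPM of all listed chemokines in control and 99.6% after TGF-β1 (means of 3 libraries). Most of that sum was CXCL8. In control, CCL28, outside the members, was at 23.1 ± 0.520 TPM, above CXCL5, CX3CL1 and the members below them. CXCL16 was at 10.4 ± 1.28 TPM (SD, n = 3), above CCL2. Of 38 other chemokine genes, 36 had an entry on a primary chromosome. No read was found for 29 of these in any library, and 4 more had at most 3 reads in a library, including CXCL10. Of the 3 tested, 0 were higher and 2 were lower, compared with 22.2% and 22.1% of all genes tested. CCL28, a mucosal epithelial chemokine, fell from 34.5 ± 0.334 to 22.3 ± 2.77 CPM (SD, n = 3; log2 fold change -0.63 ± 0.09 SE, edgeR adjusted p = 1.5e-04). CXCL16, like CX3CL1 a membrane-anchored chemokine, fell from 7.51 ± 0.959 to 3.58 ± 0.0609 CPM (-1.07 ± 0.13, adjusted p = 7.3e-05). CXCL16 overlaps MED11 and ZMYND15 on the opposite strand, and strand-specific counting is not stated, so its reads cannot be fully told from theirs. CCL26 (eotaxin-3) was not called, at 0.871 ± 0.232 and 0.503 ± 0.196 CPM (-0.80 ± 0.34, adjusted p = 0.0812), but was called without TGF-β1 replicate 3 (-1.12, adjusted p = 0.0361).

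The receptors for the members were scarcely read. Of 23 chemokine receptor genes, 9 had no read and 13 more had at most 11 reads in a library. CXCR2, the shared receptor of the ELR chemokines, had 0 reads in all 6 libraries, and CXCR1 had 1. CCR2 and CX3CR1, the receptors of CCL2 and CX3CL1, had 0 reads. CXCR4, the receptor of CXCL12, had 0, 2 and 1 reads in control and 0 in each TGF-β1 library. CCR6, the receptor of CCL20, had 4, 2 and 1 reads in control and 3, 2 and 3 after TGF-β1. A count of 0 allows up to 3 reads per library, so low expression cannot be told from none. Only CXCR5, the receptor of CXCL13, passed the filter, with 1, 4 and 2 reads in control and 132, 105 and 97 after TGF-β1 (log2 fold change 5.49 ± 0.29 SE, edgeR adjusted p = 9.9e-08). Its depth-adjusted read ratio was 47.3 (95% exact interval 22.7 to 118). CXCR5 overlaps BCL9L on the opposite strand, which rose from 77.4 ± 4.51 to 126 ± 5.32 CPM (0.71 ± 0.06), and the part of its reads in the CXCR5 count was not tested.

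Among 35 inducers and regulators of chemokine transcription and mRNA stability, 29 were tested. Of these, 8 were higher and 8 were lower, compared with 22.2% and 22.1% of all genes tested. The median log2 fold change of the 29 was 0.01, the same as that of all genes tested (0.01). Among components of NF-κB signalling, NFKBIA, which encodes the inhibitor IκBα and is itself an NF-κB target, fell from 141 ± 4.84 to 60.6 ± 2.09 CPM (log2 fold change -1.22 ± 0.06 SE). BCL3, a nuclear IκB protein, fell by 0.87 on the log2 scale. RELB, an NF-κB subunit, rose by 0.70, and the inhibitor NFKBIE rose by 0.50. RELA, the main activating subunit, was not called, at 55.1 ± 5.35 and 55.5 ± 6.51 CPM (0.01 ± 0.10, edgeR adjusted p = 0.925), and its sign turned with the scaling. The receptors TLR2, TLR3 and IL1R1, which signal to NF-κB, fell by 1.33, 0.74 and 0.81 on the log2 scale.

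The C/EBP factors, which bind several chemokine promoters, changed in both directions. CEBPD fell from 57.4 ± 3.87 to 13.6 ± 2.82 CPM (log2 fold change -2.07 ± 0.13 SE), while CEBPB rose from 46.4 ± 6.46 to 73.6 ± 2.25 CPM (0.67 ± 0.09; SD, n = 3). Of the inducing cytokines, TNF had 0 reads over all of its 8 entries, and IL1B had 1, 4 and 2 reads in control and 0, 2 and 0 after TGF-β1. IL1A had 24, 15 and 25 reads in control and 45, 39 and 35 after TGF-β1 (0.87 ± 0.24, edgeR adjusted p = 0.0125). That call was lost with DESeq2 (adjusted p = 0.0594) and without control replicate 2 (0.0501). IL18 fell from 10.7 ± 1.01 to 2.64 ± 0.345 CPM (-2.02 ± 0.13).

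Genes whose proteins shed, trim or bind chemokines were also read. Of 9 tested, 3 were higher and 5 were lower, compared with 22.2% and 22.1% of all genes tested. MMP2, a protease that can cleave CXCL12 and CCL7, rose from 0.453 ± 0.0479 to 6.24 ± 0.720 CPM (log2 fold change 3.77 ± 0.18 SE; SD, n = 3). MMP9 rose from 0.484 ± 0.114 to 1.51 ± 0.456 CPM (1.65 ± 0.30), with 11, 9 and 14 reads in control. ADAM10 fell from 287 ± 12.5 to 222 ± 18.0 CPM (-0.37 ± 0.07). DPP4, which trims the ends of many chemokines including CXCL12, fell from 27.7 ± 0.300 to 15.1 ± 1.12 CPM (-0.88 ± 0.07). Of the syndecans, cell-surface heparan sulfate carriers that hold chemokines, SDC1 was higher, at 0.68 ± 0.06. SDC2 (-0.43 ± 0.06), SDC3 (-0.84 ± 0.07) and SDC4 (-0.45 ± 0.06) were lower. SDC4 was the most abundant of them, at 758 ± 50.2 CPM in control and 556 ± 8.55 CPM after TGF-β1 (SD, n = 3). Protein levels, secretion and cleavage were not measured by these libraries.

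The label of tubular cells was compared with marker genes. Of 12 tubule markers, 10 were tested, with 5 higher and 5 lower, including PAX8 at 251 ± 13.9 CPM in control (SD, n = 3). Among all genes tested, 22.2% were higher and 22.1% were lower. LRP2 (megalin), a defining marker of the proximal tubule, had 0 reads in every library, and ANPEP had at most 2. Other proximal tubule markers were read. GGT1 fell from 75.6 ± 7.22 to 50.5 ± 5.90 CPM (SD, n = 3). AQP1 rose from 5, 7 and 16 reads to 56, 28 and 39, and CUBN rose from 13, 10 and 11 reads to 23, 18 and 20. The summed level of the tubule markers was 1203 to 1241 CPM in control and 1757 to 1941 CPM after TGF-β1. Of 9 leukocyte markers, TYROBP and CD3E had 0 reads and PTPRC had at most 2 in a library. Their summed level, mostly that of CD68, was 99.7 to 109 CPM in control and 86.1 to 112 CPM after TGF-β1. Of the 3 tested, CSF1R was higher (4.19 ± 0.182 to 24.6 ± 1.68 CPM), and CD14 and CD68 were lower. Of 7 endothelial or stromal markers, 3 were tested, with PDGFRB and COL3A1 higher and CDH5 lower, from 29, 16 and 17 reads to 0 in each TGF-β1 library. Their summed level was 2.08 to 2.35 CPM in control and 6.92 to 7.98 CPM after TGF-β1. The part of the cells behind these markers in the chemokine values was not tested.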

How the data were processed

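Poly(A) RNA of HK-2 cells was sequenced as paired-end reads, from which the authors dropped those with adapters or of low quality. The submitters' processing notes name CASAVA, featureCounts 2.0.1, DESeq2 1.16.1 and genome build hg38. The aligner is not given in the sources used here, nor is a strand setting of the counting. Per the file headers, each deposited table gives raw counts per gene, together with TPM and FPKM from the authors. Counts were used for all tests and TPM for levels between genes. FPKM values were not used. Records broken over several lines (7 in each file) were rejoined. Counts of loci with no gene name, 0.396% to 0.464% of each library, were not used.

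Groups followed the treatment in the labels (3 control, 3 TGF-β1). The 10 members and the gene lists beside them were chosen with earlier results of these data known, so their counts carry no test of a list. Genes passing filterByExpr in edgeR 4.0.16 (minimum count 10) were scaled with TMM and compared by the two-sided robust quasi-likelihood F test, with Benjamini-Hochberg adjustment over 14860 genes. A gene was called at an adjusted p under 0.05. Dividing each log2 fold change by the root of its F statistic gave its SE. CPM used TMM-scaled library sizes. Members under the filter were compared by read ratios with 95% exact binomial intervals, which cover counting error only, since PCR copies cannot be told from separate molecules, and by exact permutation of the libraries (smallest p 0.1). Libraries of a group differed by more than sampling noise in every pair (chi-square per degree of freedom 4.20 to 18.0).

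All members were named, with every tested gene among the other chemokines, receptors and named 4q13 neighbours. Regulators were named when called with a log2 fold change of at least 0.5 in size and a mean of at least 1 CPM. IL1A, IL1B, TNF, NFKBIA and RELA were named in any case. These limits were also planned for the processing genes, of which every called gene was named. Of the marker lists, genes other than those at 0 were chosen after their values were seen. Promoter sequences were RefSeq GRCh38.p14 and their starts equalled those of the deposited tables. A planned description of protein motifs was not run. A planned check of the treatment on a single gene is not reported here. Alternatives were DESeq2 1.42.0, limma-voom (limma 3.58.1), RLE size factors, total counts, other count filters, a replicate block, summed entries of a name and omission of single libraries. Other software was R 4.3.3, Python 3.11.15, pandas 2.3.3 and scipy 1.17.1.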

Additional observations from a re-analysis of the deposited data

How the results depend on the processing

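The tested members kept their direction under every alternative run, and 106 of 110 alternative values also kept their side of the threshold. The other 4, all of CXCL6, were no longer called (DESeq2, and the edgeR fits named in the report). Log2 fold changes ranged from 0.27 to 0.41 for CXCL8, 1.002 to 1.41 for CCL2, -1.74 to -1.59 for CXCL2, -1.33 to -1.20 for CXCL3, -2.25 to -2.09 for CXCL5, -0.97 to -0.80 for CXCL6, -1.40 to -1.26 for CCL20 and -2.01 to -1.82 for CX3CL1. With genes of a mean of at least 50 counts, 1 member was higher and 5 were lower, since CCL2 and CXCL6 left the table. With all genes with a count, CXCL1 was also called lower.

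Of 362 alternative values of other named genes, 350 kept direction and call. These values do not cover ADAM10, MMP9, SDC2, SDC4, BCL9L or the marker genes. Reversed values were those of 2 genes near 0. MTHFD2L was at -0.0966 with total counts only and -0.0104 with a mean of at least 50 counts, and between -0.0524 and 0.132 when 1 library was left out. RELA was at -0.0934 and -0.00845 in those fits, and between -0.0900 and 0.0891 when 1 library was left out. The cause was not tested.

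Whether libraries with the same replicate number were paired is not stated. Their deviations from the group mean correlated at 0.11, -0.01 and 0.08 across genes, and the 0.11 of replicate 1 was the highest of all pairings. Not every library correlated best with its own number. With 3 libraries per group, such weak correlations cannot show whether a culture or batch was shared. With a replicate block, 2 members were higher and 6 lower, as without it. Depth limits CXCL1, CXCL6 and CXCL12, with at most 21 reads in a library.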
